A study of Mus musculus with 6 samples.

Results

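The EGF family ligands and their ErbB receptors were followed here as 10 genes chosen by name: the ligand genes Areg, Hbegf, Ereg, Btc, Tgfa and Nrg1, and the receptor genes Egfr, Erbb2, Erbb3 and Erbb4. All 10 were found among the 56748 gene IDs of the deposited tables, and 8 had enough counts to be among the 16737 genes tested. The RNA was uterine and was taken at 1600 h on day 4 of mouse pregnancy, before the blastocyst attaches. Of the 6 libraries, 3 were controls labelled WT and 3 were labelled Zip10 conditional knockout (cKO), a name for deletion of the zinc importer gene Slc39a10 (Zip10). Total Slc39a10 RNA was not lower in the cKO libraries, as given below. The tissue is named uterus in the sample labels and endometrium in the series design. The labels give no strain, age, Cre driver or deleted exons, and do not say that each library came from a separate animal, so the tests speak only of the spread among these 6 libraries, which may be technical.

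Ligands of this family are made as membrane-anchored precursors, are cut free by metalloproteases and bind receptor tyrosine kinases that pair up in the membrane. EGFR binds amphiregulin, HB-EGF, TGF-alpha, betacellulin and epiregulin, ErbB3 and ErbB4 bind neuregulins, and ErbB2 has no known ligand of its own and serves as the preferred partner. In the mouse uterus the family is known for its timing before implantation, with amphiregulin as a progesterone target of the luminal epithelium and HB-EGF as a signal that appears in the epithelium around the blastocyst.

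The promoters of 6 members were matched by symbol in the RefSeq promoter table (GRCm38.p6, while the submitters' notes name GRCm39 for the alignments). Those of Areg, its chromosomal neighbour Btc and Egfr are shown because they are the ligand gene with the highest mean level, a low ligand gene next to it and the most abundant receptor gene. Each line holds the 250 bases before the annotated start, read 5′ to 3′ on the gene's strand. Their positions are chr5:91139349-91139598 (plus strand) for Areg, chr5:91402995-91403244 (minus strand) for Btc and chr11:16751953-16752202 (plus strand) for Egfr. Capitals mark matches, on either strand, to the cyclic AMP response element TGACGTCA or its part TGACG, the TATA box TATAAA and the GC box GGGCGG.
Areg: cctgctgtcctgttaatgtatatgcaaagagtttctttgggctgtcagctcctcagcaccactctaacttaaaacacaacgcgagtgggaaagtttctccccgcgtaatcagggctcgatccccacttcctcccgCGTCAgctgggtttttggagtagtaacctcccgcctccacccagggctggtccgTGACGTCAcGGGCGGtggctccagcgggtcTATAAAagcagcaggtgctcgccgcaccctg
Btc: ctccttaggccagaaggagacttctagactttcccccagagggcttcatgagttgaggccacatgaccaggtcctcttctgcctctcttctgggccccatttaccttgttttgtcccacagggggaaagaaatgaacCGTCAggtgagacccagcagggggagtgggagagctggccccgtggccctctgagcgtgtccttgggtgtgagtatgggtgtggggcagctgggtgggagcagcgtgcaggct
Egfr: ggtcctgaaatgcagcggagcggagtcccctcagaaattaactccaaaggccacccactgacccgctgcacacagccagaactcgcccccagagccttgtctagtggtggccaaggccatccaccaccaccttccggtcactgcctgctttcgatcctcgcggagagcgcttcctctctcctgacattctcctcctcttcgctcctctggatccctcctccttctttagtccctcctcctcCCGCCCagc
The Areg promoter held the full element TGACGTCA at bases -61 to -54 counted back from the start, which also contains the part TGACG on both strands. It held a further part element at -115 to -111, a GC box at -52 to -47 and a TATA box at -31 to -26. In the Btc window the only match was 1 part element, and in the Egfr window it was 1 GC box, at -9 to -4. Of 32851 promoter windows of this length in the table, 1.55% held TGACGTCA, 17.8% TGACG, 12.4% TATAAA and 32.7% GGGCGG. The progesterone response element (palindromic consensus), found in 0.387% of windows, had no match in the windows shown. A match is a description of the sequence, and no binding was measured.

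In these uteri the summed receptor genes exceeded the summed member ligand genes per unit of gene length, although the receptor gene Erbb4 was the lowest member. As TPM, which divides counts by gene length, Egfr averaged 15.3 ± 1.90 (SD, n = 6 libraries), Erbb2 11.4 ± 1.99 and Erbb3 6.71 ± 2.19. Areg followed at 5.52 ± 2.37 TPM, Hbegf at 5.18 ± 0.920 and Tgfa at 3.40 ± 0.460. Nrg1 stood at 0.850 ± 0.507 TPM, Btc at 0.432 ± 0.111 and Ereg at 0.0867 ± 0.0516. Egfr exceeded Erbb2, and Erbb2 exceeded Erbb3, in 6 of 6 libraries. Neighbours that did not separate beyond their spread were Erbb3 and Areg, with Erbb3 higher in 4 of 6 libraries, Areg and Hbegf, with Areg higher in 3 of 6, and Nrg1 and Btc, with Nrg1 higher in 5 of 6 by a mean of 0.418 ± 0.598 TPM. Hbegf exceeded Tgfa in 5 of 6 libraries, Tgfa exceeded Nrg1 in 6 of 6 and Btc exceeded Ereg in 6 of 6.

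Erbb4, the receptor for neuregulins and HB-EGF, was near absent from the counts. It had 0 counts in 5 libraries and 1 count in cKO library 3, where a count of 0 allows a level of up to 0.132 to 0.148 CPM (3 counts of the total, counting error only; CPM is the count scaled by library size and edgeR's TMM factors). Ereg, the epiregulin gene, had 4, 2 and 9 counts in the controls and 8, 3 and 8 counts in the cKO libraries. Both genes fell below the filter on low counts of the edgeR fit.

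The epiregulin, amphiregulin, betacellulin and epigen genes lie side by side on mouse chromosome 5, with Epgn, Ereg, Areg and Btc in that order among protein-coding genes. The level of Areg was far above those of the others in the uterus, while Epgn and Ereg, at few counts, did not separate. Areg stood at 5.52 TPM, Btc at 0.432, Epgn at 0.0950 and Ereg at 0.0867 TPM as means of the 6 libraries.

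By edgeR's quasi-likelihood test no member differed between the groups at the adjusted threshold of 0.05, and neither did any other gene (0% of the genes tested). At an unadjusted p under 0.05 the test had 1 of the 8 members, Nrg1, against 6.46% of all genes tested (1081 genes). The calls of DESeq2 numbered 37 and those of limma-voom 0, beside 1201 and 1066 genes under an unadjusted 0.05, and no member was called by either. Of the 8 tested members, 3 had a positive and 5 a negative log2 fold change of cKO over control, with a median of -0.13. Over all genes tested, 8274 were positive and 8463 negative, with a median of -0.0024. In a simulation of this comparison with 16737 genes, the same test recovered 24% of genes changed 1.5-fold and 76% of those changed 2-fold. The changed genes were drawn from those above a minimum mean count that Btc and Nrg1 did not reach. These rates therefore do not cover Btc and Nrg1. They are averages over genes and not the rate of any 1 member, such as Areg. The simulation also held 50 genes changed 4-fold and 50 changed 8-fold, which eases the adjusted cut-off. No gene was called in the data, so the rates can be too high for it.

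**Figure D1:**
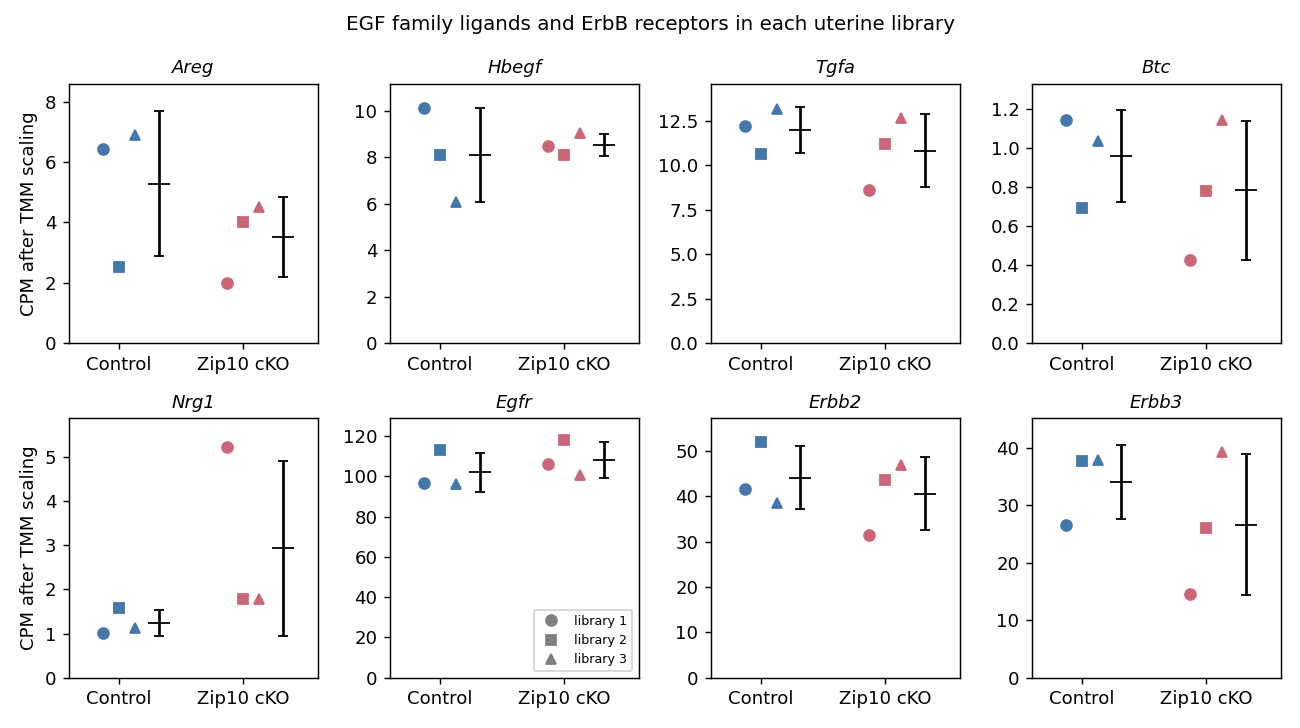
Level of each tested ligand and receptor gene in every library, as CPM after TMM scaling on an axis from 0, with the mean and SD of each group of 3 as a bar to the right of the points. Nrg1 is the panel in which the groups do not overlap, with cKO library 1 (circle) at 5.23 CPM, and Areg is low in control 2 (square) as well as in cKO library 1.

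Among the 4 tested member genes for ligands of EGFR, Areg had the widest relative range between libraries. It stood at 6.42, 2.52 and 6.90 CPM in controls 1, 2 and 3 and at 2.00, 4.00 and 4.52 CPM in cKO libraries 1, 2 and 3. Controls 1 and 3 were the highest, control 2 lay below 2 of the 3 cKO libraries, and the groups overlapped. The means were 5.28 ± 2.40 and 3.51 ± 1.33 CPM (SD, n = 3 each), a fold of 0.664 with a 95% interval from 0.336 to 1.31. The edgeR quasi-likelihood test gave an adjusted p of 0.780. The log2 fold change was -0.59 over all libraries, -0.92 without control 2 and -0.31 without cKO library 1, with no call in either. Areg counts numbered 42 to 146 per library.

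The series title concerns progesterone responsiveness, and Areg is a gene that the hormone is known to induce. Pgr, the progesterone receptor gene, stood at 144, 245 and 177 CPM in controls and 176, 178 and 160 CPM in cKO libraries. Its groups overlapped too, and control 2, low in Areg, was the library with the most Pgr. Ihh, a hedgehog ligand gene that the hormone also induces, was added after its values were seen. It stood at 82.1, 79.3 and 74.9 CPM in controls and 38.1, 62.3 and 60.9 CPM in cKO libraries. The log2 fold change of Ihh was -0.55 ± 0.18 (SE, adjusted p = 0.747, edgeR). Its groups did not overlap, which holds in this direction for 5.78% of all genes tested. No list of genes induced by the hormone was tested, so a gene chosen this way does not show whether the response differed.

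Hbegf, the heparin-binding ligand of EGFR and ErbB4, stood at 10.2, 8.10 and 6.09 CPM in controls and at 8.51, 8.10 and 9.04 CPM in cKO libraries. The 3 cKO libraries lay inside the range of the controls. The fold was 1.05 with a 95% interval from 0.757 to 1.46, so a 2-fold difference in either direction lies outside the interval. Its sign turned without control 3, to a log2 fold change of -0.11.

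Tgfa, the TGF-alpha gene, had a narrower relative range than Areg, Hbegf and Btc, at 12.2, 10.6 and 13.2 CPM in controls and 8.60, 11.2 and 12.7 CPM in cKO libraries. cKO library 1 was the lowest and the groups overlapped. The fold was 0.902 (95% interval 0.676 to 1.20). Btc, betacellulin, stood at 1.14, 0.692 and 1.04 CPM in controls and 0.428, 0.782 and 1.14 CPM in cKO libraries, also with cKO library 1 the lowest. Its fold was 0.816 with a 95% interval from 0.421 to 1.58, from 9 to 26 counts per library.

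Nrg1, a neuregulin gene whose products bind ErbB3 and ErbB4, was the member with the largest fold. Its levels were 1.01, 1.58 and 1.13 CPM in controls and 5.23, 1.79 and 1.79 CPM in cKO libraries, from 23, 32 and 24 counts and 110, 39 and 36 counts. All 3 cKO libraries lay above all 3 controls, which holds in this direction for 6.93% of all genes tested, and cKO library 1 stood far above the other 5. The fold was 2.36 with a 95% interval from 1.12 to 4.99 (adjusted p = 0.747, edgeR). Without cKO library 1 the log2 fold change was 0.53 in place of 1.24, and no setting called the gene.

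cKO library 1 also stood apart in other measures. In a multidimensional scaling plot of the tested genes it lay at -1.58 on the leading axis, against -0.02 to 0.77 in the other 5, and mitochondrial genes took 3.43% of its counts against 4.50% to 4.84%. It held the most macrophage marker RNA, 626 CPM summed over 8 markers against 290 to 405 CPM in the other cKO libraries and 244 to 316 CPM in controls. None of these 8 markers was at 0 in all libraries, and their part in the Nrg1 value was not tested.

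**Figure D2:**
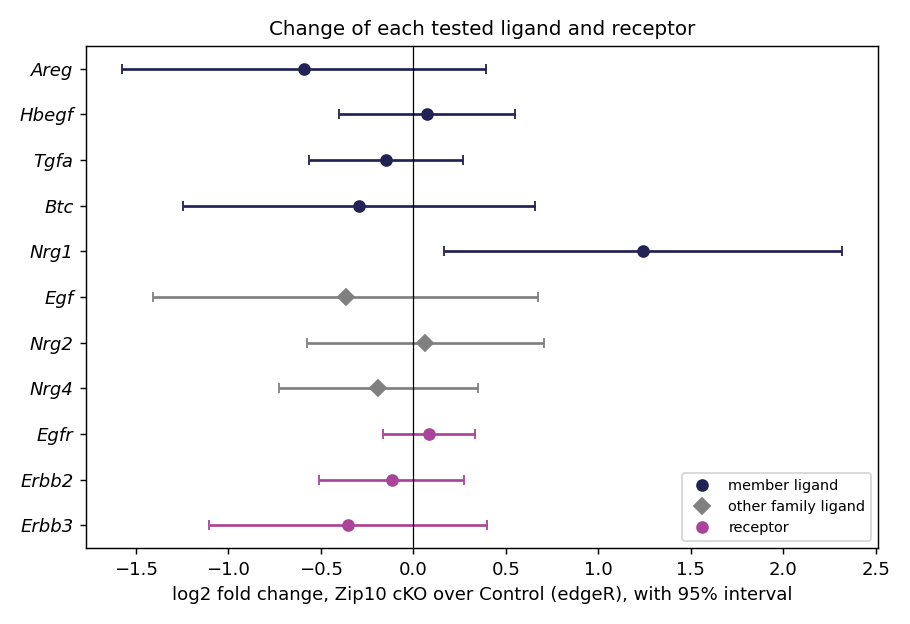
Log2 fold change of cKO over control for each tested ligand and receptor gene, with its 95% interval from the edgeR fit. The interval of Nrg1 (1.24) lies above 0 without passing the adjusted threshold, all others span 0, and that of Egfr is the narrowest.

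The receptor genes Egfr, Erbb2 and Erbb3 were deeper in counts than the ligand genes, and Egfr was the most precisely measured member. Egfr stood at 96.6, 113 and 96.4 CPM in controls and 106, 118 and 101 CPM in cKO libraries, with overlapping groups. The means were 102 ± 9.68 and 108 ± 8.90 CPM (SD, n = 3 each), a fold of 1.06 with a 95% interval from 0.892 to 1.26. Its sign turned, to a log2 fold change of -0.10, when the trend of each library on gene length was removed.

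Erbb2 stood at 41.6, 51.9 and 38.6 CPM in controls and 31.4, 43.6 and 46.8 CPM in cKO libraries. The highest value was in control 2 and the lowest in cKO library 1, and the fold was 0.922 (95% interval 0.702 to 1.21). Erbb3, whose product has a weak kinase and signals through its partner, stood at 26.5, 37.6 and 37.8 CPM in controls and 14.6, 26.0 and 39.2 CPM in cKO libraries. Both the lowest and the highest library were cKO libraries. Its fold was 0.783 with a 95% interval from 0.466 to 1.32, and the log2 fold change was -0.35 over all libraries and -0.06 without cKO library 1.

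Epithelial RNA was also low in cKO library 1. The summed level of 13 epithelial markers was 1619, 1487 and 1066 CPM in controls and 886, 1340 and 1114 CPM in cKO libraries. Of the 13 markers, 11 had a negative log2 fold change, beside 8463 of all 16737 genes tested. None was at 0 counts in all libraries. Epcam, an epithelial adhesion molecule, stood at 103 ± 3.20 and 81.4 ± 14.7 CPM, and Krt8, a keratin, at 177 ± 51.6 and 139 ± 36.0 CPM (SD, n = 3 each). Stromal markers summed to 10635 to 14067 CPM in controls and 14902 to 17433 CPM in cKO libraries, and smooth muscle markers to 7861 to 13790 and 12985 to 17743 CPM. In bulk tissue, fewer cells of a type and less RNA per cell cannot be told apart, and the part of the cell mix in the ligand and receptor values was not tested.

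Pools built from TPM asked whether the balance of ligands and receptors differed, free of library scaling. The log2 ratio of the summed TPM of the 6 ligand genes to that of the 4 receptor genes was -0.67, -1.66 and -0.89 in controls and -1.11, -1.22 and -1.14 in cKO libraries. The cKO libraries lay close together, inside the wide range of the controls. The difference of -0.09 gave p = 0.8 in an exact two-sided permutation test, where 3 against 3 cannot go below 0.1 (adjusted 0.8 over 3 such tests).

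Areg made up 42.3%, 26.1% and 49.9% of the ligand pool in controls and 19.4%, 34.4% and 35.4% in cKO libraries. The difference of -9.68 percentage points was smaller than the SD of the controls, 12.2, with p = 0.4 in an exact two-sided permutation test (adjusted 0.6). Hbegf supplied 20.5% to 39.1% of the pool in controls and 32.7% to 44.5% in cKO libraries. Nrg1 supplied 13.5% in cKO library 1 and 2.46% to 5.49% in the other 5 libraries.

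Egfr made up 44.3%, 42.0% and 42.4% of the receptor pool in controls and 58.6%, 49.2% and 40.3% in cKO libraries. The controls lay within a few points of each other, while the cKO libraries fell on both sides of them. The difference was 6.45 percentage points (exact two-sided permutation p = 0.4, adjusted 0.6), and 1.84 points without cKO library 1. Erbb3 took 11.5% of the pool in that library and 16.7% to 25.7% in the others.

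**Figure D3:**
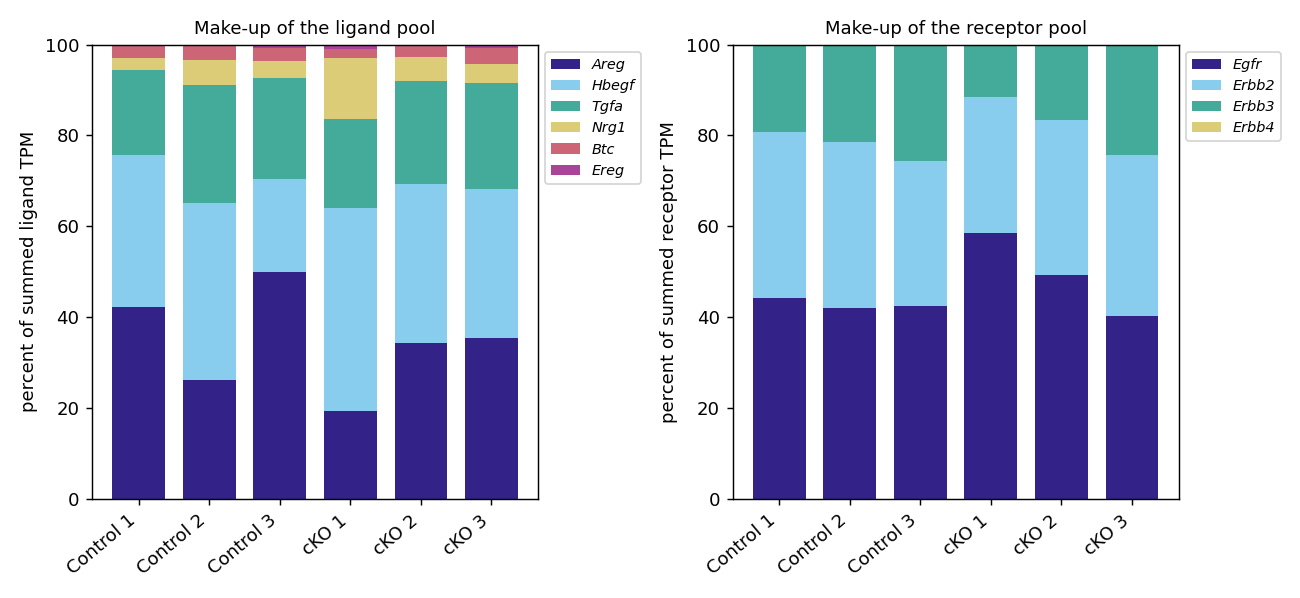
Share of each gene in the summed TPM of the 6 ligand genes (left) and of the 4 receptor genes (right), as stacked percentages for each library. cKO library 1 has the smallest Areg share (19.4%), the largest Nrg1 share (13.5%) and the largest Egfr share (58.6%), and Erbb4 is too small to see in any library.

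Of the other 5 ligand genes of the family, Nrg4 and Nrg2 were measured above Nrg1. Nrg4, whose product binds ErbB4, averaged 4.68 TPM over the 6 libraries and exceeded Nrg1 in 6 of 6, while its receptor gene Erbb4 had 1 count in all. Nrg4 stood at 5.45, 6.72 and 5.38 CPM in controls and 3.75, 5.38 and 6.26 CPM in cKO libraries, with a fold of 0.877 (95% interval 0.604 to 1.27). Nrg2 averaged 2.37 TPM, with a fold of 1.05 (95% interval 0.671 to 1.63). Egf, the founding member of the family, averaged 0.588 TPM, with a log2 fold change of -0.37 (95% interval -1.40 to 0.67). Epgn had 0 to 6 counts per library and Nrg3 had 0 in every library.

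Genes that carry the signal were read from 4 lists of 57 genes, of which 56 were tested and 0 were called by edgeR's quasi-likelihood test after adjustment. An unadjusted p under 0.05 was seen for 2 genes with a positive and 1 with a negative log2 fold change, against 4.48% and 1.98% of all genes tested. Over the 56 genes, 39 log2 fold changes were positive and 17 negative, with a median of 0.07. Over all 16737 genes tested, 8274 were positive and 8463 negative, with a median of -0.0024. With each library's length trend removed, several of the positive values given below came nearer to 0, and Rhbdf2 moved further below it. All cKO libraries lay above all controls for 5 of them and below for 3, against 6.93% and 5.78% of all genes tested (12.7% in either direction).

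The shedding list had 9 tested genes, 7 positive and 2 negative, with a median log2 fold change of 0.10. Adam17 and Adam10, the main ligand sheddases, gave 0.10 ± 0.11 and 0.06 ± 0.10 (SE). Adam9, a related metalloprotease, stood at 79.7, 89.5 and 99.6 CPM in controls and 137, 100 and 102 CPM in cKO libraries (log2 fold change 0.34 ± 0.15). Its lowest cKO library exceeded the highest control by less than 1 CPM. Rhbdf2, the iRhom that escorts ADAM17 to the surface, went the other way at 28.8, 28.1 and 27.7 CPM in controls and 19.4, 26.4 and 23.3 CPM in cKO libraries (log2 fold change -0.29 ± 0.13). Timp3, an inhibitor of ADAM17, gave 0.19 ± 0.13 and Rhbdf1 gave 0.10 ± 0.11. With each library's length trend removed, Adam9 was at 0.27, Rhbdf2 at -0.34, Timp3 at 0.09 and Rhbdf1 at 0.10.

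Inhibitors and turnover factors of the receptors numbered 12 tested genes, 10 positive and 2 negative, with a median of 0.09. Ptpn1, a tyrosine phosphatase that acts on EGFR, was at 63.7, 65.7 and 64.3 CPM in controls and 81.6, 75.1 and 77.2 CPM in cKO libraries. Its groups were well apart, with a log2 fold change of 0.27 ± 0.09 (adjusted p = 0.747, edgeR). Cbl, the ubiquitin ligase that sends EGFR for degradation, gave 0.26 ± 0.12 and Erbin, a scaffold that binds ErbB2, 0.20 ± 0.11, with groups that did not overlap. Errfi1, a feedback inhibitor of the ErbB kinases, stood at 211, 236 and 235 CPM in controls and 338, 194 and 353 CPM in cKO libraries, so cKO library 2 lay below every control and the other cKO libraries far above. With each library's length trend removed, Cbl was at 0.09 and Erbin at 0.07, beside 0.20 for Ptpn1 and 0.35 for Errfi1.

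Adaptors and the MAPK cascade numbered 20 tested genes, 13 positive and 7 negative, with a median of 0.04. Ptpn11, the phosphatase SHP2 that relays receptor signals, gave 0.24 ± 0.11, and Mapk3, the kinase ERK1, -0.17 ± 0.09, both with groups that did not overlap. With each library's length trend removed, Ptpn11 was at 0.12 and Mapk3 at -0.14. Sos1, a guanine nucleotide exchange factor, gave 0.18 ± 0.12.

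Response and feedback genes, which receptor signalling is known to induce, numbered 15 tested of 16, 9 positive and 6 negative, with a median of 0.07. Egr1, an immediate early transcription factor, stood at 84.8, 138 and 89.3 CPM in controls and 65.8, 56.2 and 101 CPM in cKO libraries, a log2 fold change of -0.49 ± 0.26. Myc stood at 158, 155 and 143 CPM in controls and 117, 146 and 106 CPM in cKO libraries (-0.31 ± 0.13), with cKO library 2 above control 3. Ier3, another immediate early gene, gave 0.37 ± 0.18 and Spry2, a feedback inhibitor of the cascade, -0.17 ± 0.11. These genes respond to many other signals too.

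**Figure D4:**
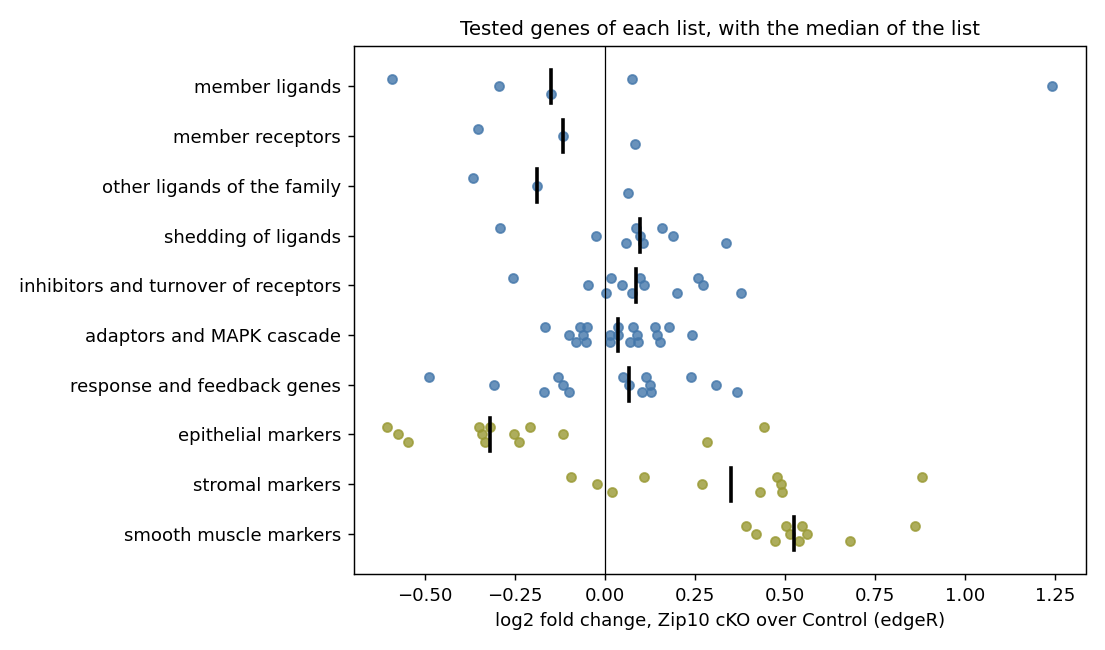
Log2 fold change of cKO over control for every tested gene of the ligand, receptor and pathway lists (blue) and of 3 marker lists (olive), with a black bar at the median of each list. Medians of the ligand and receptor lists lie below 0 (-0.15 and -0.12), those of the 4 pathway lists between 0.04 and 0.10, and the epithelial, stromal and smooth muscle markers at -0.32, 0.35 and 0.53.

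The targeted gene Slc39a10 was not lower in the cKO libraries, at 54.6, 70.4 and 66.2 CPM in controls and 39.5, 72.5 and 79.8 CPM in the others. A gene total also counts reads from exons outside a deletion, so this does not check the labels, and every direction above is that of the libraries labelled Zip10 cKO. Total counts ranged from 19643069 to 22809574 per library.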

How the data were processed

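Uterine poly(A) RNA from 3 control and 3 Zip10 cKO libraries was grouped by the sample titles. Per the submitters' processing notes, RSEM 1.3.3 and STAR 2.7.10a were used with the build GRCm39, beside fastp 0.23.2, edgeR 3.38.4 and R 4.2.1. For annotation release, strand setting and parameters, the sources used here give nothing. The authors deposited RSEM expected counts and TPM per gene, per the file headers, with gene lengths weighted by isoform abundance. RSEM splits reads shared between genes.

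Expected counts were rounded, filtered with filterByExpr (minimum count 10, minimum total 15), scaled by TMM and tested in R 4.3.3 by the two-sided robust quasi-likelihood test of edgeR 4.0.16. Benjamini-Hochberg adjustment covered 16737 genes, with a threshold of 0.05. SE came from the F statistic. IDs were named with GENCODE M21 (52073 of 56748 matched). Pools of deposited TPM were compared by exact permutation over libraries. The test was tried on simulated counts with 50 changed genes per fold and gave 8 false calls. Library pairs of a group differed beyond sampling noise (chi-square per degree of freedom at least 19.6).

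Members and lists were chosen with earlier results of these data known. Named genes were all members and other family ligands, Slc39a10, Pgr, Epcam, Krt8, the 4 genes of smallest p in each pathway list and the 3 with profiles nearest Areg. Of the genes this rule names, 1 is not reported here. Adam17, Adam10 and Ihh were added after their values were seen. Alternatives were DESeq2 1.42.0, limma-voom (limma 3.58.1), other scalings and filters, limma-trend on log2(TPM + 1) and log2(TPM + 0.1), the replicate block, removal of each library's length trend (loess, span 0.5) and leaving out each library. Figures used matplotlib 3.10.9.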

Additional observations from a re-analysis of the deposited data

How the results depend on the processing

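No setting called a member, and of 544 values for 34 named genes under 16 alternatives, 515 kept their direction and 29 turned it. All genes called numbered 0, but 37 with DESeq2 and 15 with no filter on low counts, and 0 to 2 with a library left out (2 without cKO library 1). Among members the sign turned for Egfr with the length trend removed (-0.10), for Hbegf without control 3 (-0.11; range with a library left out -0.11 to 0.26) and for Erbb2 without control 2 or cKO library 1 (0.016 and 0.036; range -0.23 to 0.036). The cKO minus control difference in the log2 ratio of ligand to receptor TPM ranged from -0.38 to 0.12 with a library left out, and turned positive without control 1 or 3. Nrg2 was at -0.041 and -0.058 on log2(TPM + 1) and log2(TPM + 0.1), and at -0.14 to 0.27 with a library left out. Pgr was at 0.031 and 0.033 on these scales, and at -0.31 to 0.090 with a library left out. Slc39a10, at 0.0046, was at -0.0020 with DESeq2, -0.051 with limma-voom, -0.0060 with upper-quartile scaling, -0.00027 with no filter, -0.0037 with the 1 CPM filter, -0.048 with the replicate block, -0.11 with the length trend removed and -0.19 to 0.26 with a library left out. Tmem132e, at 0.01, was at -0.13 with limma-voom, -0.27 and -0.37 on the TPM scales, -0.083 with the replicate block, -0.060 with the length trend removed and -0.76 to 0.36 with a library left out. AC102496.1 was at -0.67 to 0.077 with a library left out. The causes were not tested. Same-numbered libraries correlated at 0.09, 0.25 and 0.19 in their deviations from group means, against -0.33 to 0.12 for the other combinations. cKO library 1 correlated slightly better with control 3 (0.12) than with control 1 (0.09). The labels do not say that the numbers mark pairs, so the main test used no pairing. With the replicate block, edgeR's quasi-likelihood test called 0 genes, as without it. At an unadjusted p under 0.05 the blocked test had 1354 genes and 2 members, in place of 1081 genes and 1 member. Erbb3 was at -0.44 with the block (edgeR quasi-likelihood, unadjusted p = 0.043, adjusted p = 0.614). Low counts limit Btc, Nrg1, Ereg and Erbb4.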

Other observations

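Nrg1 has 33 transcripts in the deposited tables, and its abundance-weighted length differed between libraries more than that of any other tested member. It was 2959, 3214 and 2433 bases in controls and 4023, 3217 and 3520 bases in cKO libraries, a ratio of longest to shortest of 1.65. The 3 longest values were those of the cKO libraries. On the TPM scale, Nrg1 stood at 0.440, 0.680 and 0.650 TPM in controls and 1.86, 0.760 and 0.710 TPM in cKO libraries, with groups that did not overlap. The log2 fold change was 0.70 on log2(TPM + 0.1) and 0.37 on log2(TPM + 1) by limma-trend, 1.07 on counts by limma-voom and 1.24 on counts by edgeR. These differ in method and pseudocount as well as in length, and the part of length was not tested. From 23 to 110 counts per library, RSEM's split between 33 transcripts is imprecise, and no test was made.

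Egfr, with 5 transcripts, had weighted lengths of 9350, 9169 and 9192 bases in controls and 8484, 9130 and 9183 bases in cKO libraries, with cKO library 1 the shortest. Hbegf, with 3 transcripts, ranged from 2086 bases in cKO library 1 to 2390 bases in cKO library 3. Areg, Ereg and Erbb3 have 1 transcript each in the tables, so their lengths carry no such information.

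Set against the summed epithelial markers of each library (0.1 CPM added to each member), the log2 difference of cKO over control was -0.21 for Areg (SD 0.96 in controls and 0.41 in cKO libraries) and -0.13 for Erbb3 (SD 0.56 and 0.57). It was 0.42 for Hbegf (SD 0.10 and 0.34), for which the controls lay at -0.10, -0.30 and -0.23 and the cKO libraries at 0.51, -0.15 and 0.27 around the mean, with overlapping groups. The same divisor served every member and was lower in cKO libraries (log2 ratio of means -0.32), which raises all these differences alike. For Tgfa and Erbb2 the difference was 0.16 and 0.19, and the turn from their log2 fold changes of -0.15 and -0.12 follows from that divisor. For Egfr and Nrg1 it was 0.40 and 1.33. Btc stood at 0.00023 (SD 0.50 and 0.49), and Ereg, at very low counts, at 0.65. Erbb4 stood at 0.51, a value set by the divisor, the added 0.1 CPM and its 1 count. Which cells hold each transcript was not measured.

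Among 10460 genes of at least 10 CPM, the profiles nearest to that of Areg over the 6 libraries were those of Hdac11, Tmem132e and AC102496.1. Their mean absolute differences were 0.30, 0.30 and 0.30 in log2 CPM, where Areg itself spanned 1.72. Hdac11, a histone deacetylase gene, stood at 24.7, 16.2 and 17.7 CPM in controls and 10.7, 18.1 and 19.8 CPM in cKO libraries. These genes were picked for their nearness to Areg, so a lowest value in cKO library 1, as in Areg, is no separate result. How near a profile would come by chance was not tested.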
